A study of Mus musculus with 9 samples.

Results

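The genes described here are 5 of the 54146 in a table of RNA counts from eosinophils sorted out of mouse quadriceps muscle: Neb (nebulin), Nebl (nebulette), Lasp1, Nrap and Ttn (titin). They were picked by gene symbol, and the choice was made with their levels in these same libraries already known. All 5 were found in the table, and all 5 passed the filter on low counts. Levels and differences of the 5 genes are therefore given as a description, with no test, and tests are given for other genes only.

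Eosinophils are granulocytes that infiltrate injured and dystrophic muscle, and interleukin-5 is the cytokine that drives their production. The 9 libraries form 3 groups of 3: mdx_IL5Tg, which joins the mdx background to an interleukin-5 transgene; mdx, dystrophin-deficient mice that model Duchenne muscular dystrophy; and IL5Tg, mice with the transgene. All 3 groups came from adult animals, and the cells were sorted by flow cytometry from muscle infiltrates as live CD45+ Siglec-F+ cells lacking Gr1, CD11c and MHCII. The labels name neither the promoter of the transgene nor a pooling of animals, and no wild-type group was analysed here. The strain label reads mdx in all 9 samples, IL5Tg ones included, which goes against the titles; groups follow the titles.

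Total counts lay between 26752780 and 58368283 per library. Il5 RNA stood at 664 to 724 CPM (counts scaled to the size of the library) in mdx_IL5Tg libraries, 0.265 to 0.402 CPM in mdx libraries and 317 to 523 CPM in IL5Tg libraries, so the transgene labels fitted in all 9. The mdx allele is a point mutation, so Dmd RNA need not be lost, and Dmd was at 1.64 to 2.74, 2.74 to 6.93 and 5.29 to 6.62 CPM in mdx_IL5Tg, mdx and IL5Tg libraries. The eosinophil receptor gene Ccr3 was at 809 CPM or more in every library, and all 12 eosinophil markers were detected in each group. Their summed level was 5193 to 5652 CPM in mdx_IL5Tg libraries, 2179 to 2977 CPM in mdx libraries and 5752 to 15988 CPM in IL5Tg libraries. Library S5 of the mdx group stood apart with 0.383% of its counts from mitochondrial genes, against 1.28% to 2.29% in the other 8 libraries, and IL5Tg S7 stood apart with the highest eosinophil marker sum.

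Sarcomeres, the contractile units of striated muscle, are built around giant proteins. Nebulin runs along the actin thin filament of skeletal muscle, where it sets filament length and stiffness, while titin spans from the Z-disc to the M-band and acts as a molecular spring that holds the thick filament in register. Nebulette is the shorter nebulin relative of the cardiac Z-disc, and Nrap anchors actin at intercalated discs and myotendinous junctions and takes part in myofibril assembly. Lasp1 is the widely expressed member of the nebulin family, a small LIM and SH3 protein that binds actin at focal adhesions and at the leading edge of moving cells. The same family thus holds genes known from muscle and a gene of the general actin cytoskeleton.

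In the mouse build GRCm38, Neb (ENSMUSG00000026950.17) lies at chr2:52136647-52378474 on the minus strand, with 183 distinct annotated exons and 26.6 kb of exon. Ttn (ENSMUSG00000051747.14) lies on the same chromosome and strand at chr2:76703980-76982547, with 389 exons and 116.8 kb of exon. Nebl (ENSMUSG00000053702.16) is at chr2:17343909-17731464, minus strand, with 15.2 kb of exon. Lasp1 (ENSMUSG00000038366.15) is at chr11:97799000-97838764, plus strand, with 6.5 kb, and Nrap (ENSMUSG00000049134.15) is at chr19:56320035-56390037, minus strand, with 5.5 kb. All 5 are protein-coding genes.

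Promoter windows from RefSeq (build GRCm38.p6), which run from 250 bases before a start site to 50 bases after it, were found for 4 of the 5 genes, with Neb as the missing entry. The windows of Ttn, Nrap and Lasp1 are shown because each of these genes had at least 1 pair of groups with no overlap. Nebl, the other gene with a window, had no such pair, and Nrap rests on few counts. Ttn is at chr2:76982498-76982797 (minus strand), Nrap at chr19:56389989-56390288 (minus strand) and Lasp1 at chr11:97799315-97799614 (plus strand). Sequences read 5′ to 3′ on the gene's strand, and capitals mark every match to the motifs searched on both strands.
Ttn: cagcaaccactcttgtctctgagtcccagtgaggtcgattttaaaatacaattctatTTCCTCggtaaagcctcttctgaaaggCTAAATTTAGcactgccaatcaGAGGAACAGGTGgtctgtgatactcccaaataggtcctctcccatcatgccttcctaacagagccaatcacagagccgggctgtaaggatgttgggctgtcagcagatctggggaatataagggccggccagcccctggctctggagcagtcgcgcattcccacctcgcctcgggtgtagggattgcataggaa
Nrap: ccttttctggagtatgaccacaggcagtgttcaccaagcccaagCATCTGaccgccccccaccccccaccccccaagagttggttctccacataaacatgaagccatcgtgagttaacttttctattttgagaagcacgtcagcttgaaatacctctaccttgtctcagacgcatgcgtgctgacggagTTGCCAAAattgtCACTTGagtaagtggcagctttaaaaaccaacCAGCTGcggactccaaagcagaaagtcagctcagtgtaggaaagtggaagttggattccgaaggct
Lasp1: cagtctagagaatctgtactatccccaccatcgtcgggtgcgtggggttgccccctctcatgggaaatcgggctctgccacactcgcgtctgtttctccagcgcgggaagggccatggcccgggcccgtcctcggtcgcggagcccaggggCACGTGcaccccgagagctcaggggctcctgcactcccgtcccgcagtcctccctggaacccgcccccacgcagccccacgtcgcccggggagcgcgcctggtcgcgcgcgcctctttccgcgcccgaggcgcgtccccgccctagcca
The motifs searched were the E-box CANNTG, the STAT motif TTCNNNGAA, the GATA motif AGATAA, the C/EBP motif TTGCNNAA, the PU.1 core GAGGAA, the TATA box TATAAA, the MEF2 motif and the CArG box. The Ttn window held 1 MEF2 motif, at position -166 from the start site, a motif found in 3.19% of all 32841 promoter windows of the same length. It also held 1 E-box, a motif present in 72.3% of windows, and 2 PU.1 cores, present in 28.3%, of which 1 is joined to the E-box. The Nrap window held 3 E-boxes and 1 C/EBP motif, the second of which is found in 10.8% of windows. The Lasp1 window held 1 E-box and 34 CpG sites, more than 92.3% of windows, whereas the Ttn and Nrap windows held 8 each. The STAT motif was in none of these windows, and it is in 8.3% of all windows. A match describes these letters and is not evidence of a bound site.

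Neb, the thin filament ruler of skeletal muscle, was abundant for its length in the 2 groups with the transgene and low in mdx libraries. It had 344, 412 and 646 CPM in mdx_IL5Tg libraries S1, S2 and S3, against 78.4, 44.1 and 83.4 CPM in mdx libraries S4, S5 and S6, and against 294, 664 and 473 CPM in IL5Tg libraries S7, S8 and S9. Every mdx library lay below every library of the other groups, and the mdx_IL5Tg and IL5Tg values overlapped. Group means were 467 ± 159 CPM in mdx_IL5Tg, 68.6 ± 21.4 CPM in mdx and 477 ± 185 CPM in IL5Tg libraries (SD, n = 3 each). The fitted log2 difference was 2.77 (SE 0.35) for mdx_IL5Tg against mdx and -2.80 (SE 0.35) for mdx against IL5Tg. For mdx_IL5Tg against IL5Tg it was -0.03 (SE 0.33). These levels rest on 1318 to 24751 counts per library, so counting error is small beside the spread between libraries.

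Ttn, the sarcomere's elastic filament, had the opposite order. It had 5.06, 6.14 and 6.92 CPM in mdx_IL5Tg libraries S1 to S3, against 89.4, 32.9 and 37.9 CPM in mdx libraries S4 to S6, and against 3.55, 3.50 and 1.19 CPM in IL5Tg libraries S7 to S9. No group overlapped another, with mdx at the top, mdx_IL5Tg between and IL5Tg at the bottom. Means were 6.04 ± 0.935 CPM in mdx_IL5Tg, 53.4 ± 31.3 CPM in mdx and 2.75 ± 1.35 CPM in IL5Tg libraries (SD, n = 3 each). The mdx SD was set by library S4, which had more than the other 2 mdx libraries together. The log2 difference was -3.15 (SE 0.45) for mdx_IL5Tg against mdx, 4.27 (SE 0.48) for mdx against IL5Tg and 1.12 (SE 0.44) for mdx_IL5Tg against IL5Tg. Without mdx S4, the differences that involve mdx were -2.48 and 3.65. In sorted bulk samples, fewer cells of a type and less RNA per cell cannot be told apart.

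The 2 giant genes thus had opposite orders in the same libraries. Counts of Neb per count of Ttn were 67.9, 67.0 and 93.4 in mdx_IL5Tg libraries, 0.877, 1.34 and 2.20 in mdx libraries and 82.7, 190 and 396 in IL5Tg libraries. Scaled to exon length, Neb stood 295 to 410 times above Ttn in mdx_IL5Tg libraries, 3.85 to 9.68 times above it in mdx libraries and 363 to 1741 times above it in IL5Tg libraries. The library scaling cancels in such a ratio, so the separation of mdx from the other groups is the same under any scaling.

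Lasp1, the widely expressed family member, had the highest level of the 5 per kb of exon. It had 694, 682 and 704 CPM in mdx_IL5Tg libraries, 375, 430 and 374 CPM in mdx libraries and 418, 671 and 600.5 CPM in IL5Tg libraries. With TMM scaling, the mdx_IL5Tg libraries lay within a narrow range above all 6 others, while IL5Tg S7 fell among the mdx values. The TMM factors were 0.8665 to 0.9177 in mdx_IL5Tg libraries, 1 in IL5Tg S8 and 1.079 in IL5Tg S7. Scaled to library totals alone, IL5Tg S8 would be highest and mdx_IL5Tg and IL5Tg would overlap. IL5Tg S7 would then lie above the mdx libraries. Means were 693 ± 10.8 CPM in mdx_IL5Tg, 393 ± 31.8 CPM in mdx and 563 ± 131 CPM in IL5Tg libraries (SD, n = 3 each). The log2 difference was 0.30 (SE 0.17) for mdx_IL5Tg against IL5Tg, 0.82 (SE 0.17) for mdx_IL5Tg against mdx and -0.52 (SE 0.17) for mdx against IL5Tg.

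Nebl, the nebulette gene, was low and had no order between groups. Counts by gene do not say which of its transcripts was read. It had 0.751, 1.44 and 1.28 CPM in mdx_IL5Tg libraries, 1.72, 1.31 and 1.52 CPM in mdx libraries and 2.14, 1.14 and 1.16 CPM in IL5Tg libraries, from 31 to 82 counts each. All 3 pairs of groups overlapped. Its log2 differences were -0.36 (SE 0.38) for mdx_IL5Tg against IL5Tg, -0.40 (SE 0.38) for mdx_IL5Tg against mdx and 0.03 (SE 0.38) for mdx against IL5Tg.

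Nrap, the anchoring protein of developing myofibrils, was the sparsest. It had 17, 15 and 12 counts in mdx_IL5Tg libraries, 51, 6 and 28 counts in mdx libraries and 5, 1 and 0 counts in IL5Tg libraries. In CPM these were 0.336, 0.378 and 0.313 in mdx_IL5Tg, 1.07, 0.201 and 0.675 in mdx and 0.160, 0.0325 and 0 in IL5Tg libraries. A count of 0 in IL5Tg S9 allows up to 0.112 CPM (3 counts, counting error only). The mdx values spread on both sides of the mdx_IL5Tg values, and both groups lay above IL5Tg. Between mdx and IL5Tg that gap was only 6 counts in mdx S5 against 5 in IL5Tg S7, which is within counting error. The log2 difference was 2.31 (SE 0.91) for mdx_IL5Tg against IL5Tg, -0.94 (SE 0.72) for mdx_IL5Tg against mdx and 3.24 (SE 0.89) for mdx against IL5Tg, and the values against IL5Tg rest on those few counts. Without IL5Tg S7 the value for mdx_IL5Tg against IL5Tg was 4.12 and that for mdx against IL5Tg was 4.94. Nrap passed the filter through mdx_IL5Tg and mdx libraries, where it was higher.

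**Figure D1:**
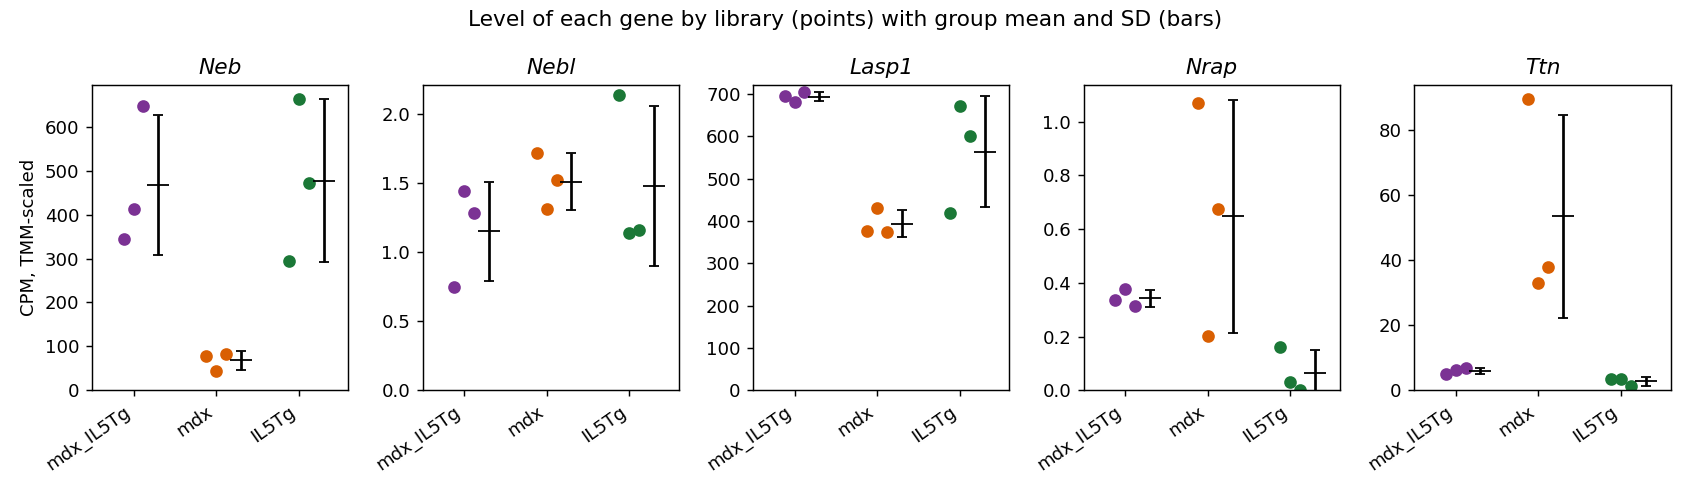
Level of each gene in CPM (linear axes from 0, 1 panel a gene, each with its own scale), with points for the 9 libraries in the order S1 to S9 and bars for the group mean and SD (n = 3), drawn down to 0 at most. Neb is lowest in the 3 mdx libraries (44.1 to 83.4 CPM) and Ttn is highest in them (32.9 to 89.4 CPM). With TMM scaling, Lasp1 is highest in mdx_IL5Tg libraries (682 to 704 CPM).

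Against the table as a whole, 3 of the 5 genes (Lasp1, Nrap and Ttn) were higher with no overlap in mdx_IL5Tg than in IL5Tg libraries and 0 were lower, where 19.4% of all tested genes were higher and 16.4% lower in that way. Between mdx_IL5Tg and mdx libraries, 2 genes (Neb and Lasp1) were higher with no overlap and 1 (Ttn) was lower, where 18.8% and 23.2% of tested genes were. Between mdx and IL5Tg libraries, 2 genes (Nrap and Ttn) were higher with no overlap and 1 (Neb) was lower, where 22.2% and 19.7% of tested genes were. Lasp1's lack of overlap between mdx_IL5Tg and IL5Tg libraries depended on the TMM scaling. The genes were chosen on these contrasts, so nothing is read from these shares. The 3 comparisons share libraries pairwise and are not independent of each other.

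**Figure D2:**
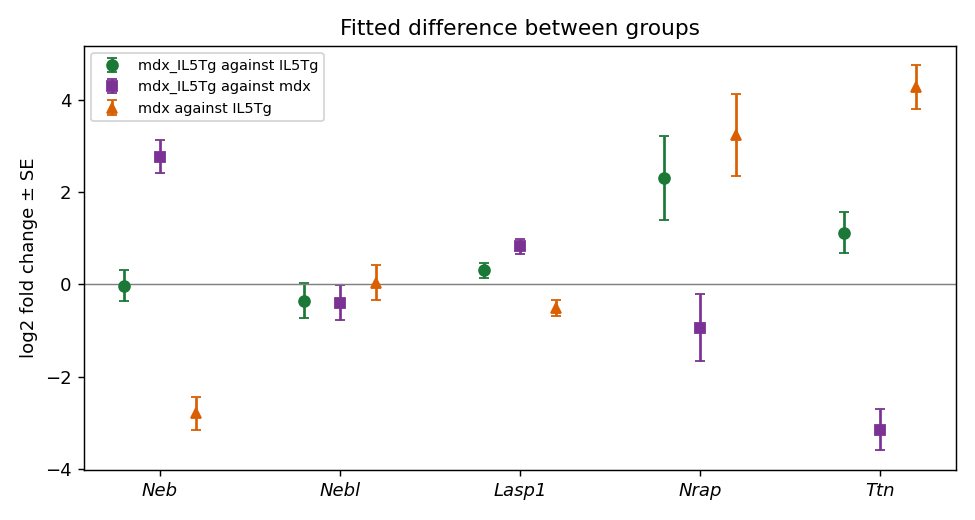
Fitted log2 fold change (vertical axis, points with bars of 1 SE) of the 5 genes in the 3 comparisons, first-named group over second. Neb is near 0 for mdx_IL5Tg against IL5Tg and at 2.77 and -2.80 in the comparisons with mdx, and Ttn has the opposite signs there (-3.15 and 4.27).

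Libraries within a group did not rank alike for all 5 genes. In the IL5Tg group, S7 had the lowest Neb and Lasp1 and the highest Nebl, Nrap and Ttn. It also held the highest eosinophil marker sum, 15988 CPM, against 5752 CPM in S8 and 8293 CPM in S9. In the mdx group, S4 had the highest Ttn, Nrap and Nebl and also the highest muscle fibre marker sum, while S5 had the lowest Neb, Ttn, Nrap and Nebl and the highest Lasp1. In the mdx_IL5Tg group, S3 had the highest Neb, Ttn and Lasp1 and the lowest Nrap.

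Levels can be compared between genes only after scaling to length, here as mean CPM per kb of annotated exon. Lasp1 stood at 107, 60.5 and 86.7 CPM per kb in mdx_IL5Tg, mdx and IL5Tg libraries, above 96.4% or more of tested genes in each group. Neb stood at 17.6, 2.58 and 17.9 CPM per kb in those groups, above 85.4%, 54.7% and 86.7% of tested genes. Ttn stood at 0.0517, 0.457 and 0.0235 CPM per kb, above 4.66%, 24.0% and 0.938% of tested genes. Nebl was between 0.0758 and 0.0994 CPM per kb and Nrap between 0.0116 and 0.118. The 5 genes therefore split into an abundant pair, Lasp1 and Neb, and a trio near the bottom of the tested genes in mdx_IL5Tg and IL5Tg libraries.

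Among 44 other sarcomere genes that were tested, Neb's length-scaled level was above 44 in mdx_IL5Tg libraries, 34 in mdx libraries and 43 in IL5Tg libraries. Their median was 0.188, 0.563 and 0.139 CPM per kb in those groups. The gene nearest to Neb in the groups with the transgene was Pdlim5, a Z-disc and cytoskeletal scaffold also used outside muscle, at 14.2 CPM per kb in mdx_IL5Tg and 18.2 CPM per kb in IL5Tg libraries. In mdx libraries Pdlim7 led these genes at 12.2 CPM per kb, followed by Pdlim5 at 9.73 and the skeletal actin Acta1 at 8.62. Neb per Acta1, both length-scaled, was 3.54 to 7.05 in mdx_IL5Tg libraries, 0.236 to 0.445 in mdx libraries and 12.9 to 21.5 in IL5Tg libraries. Exon length counts every annotated exon, and the transcripts in use are unknown, so the true level per transcript may be higher.

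**Figure D3:**
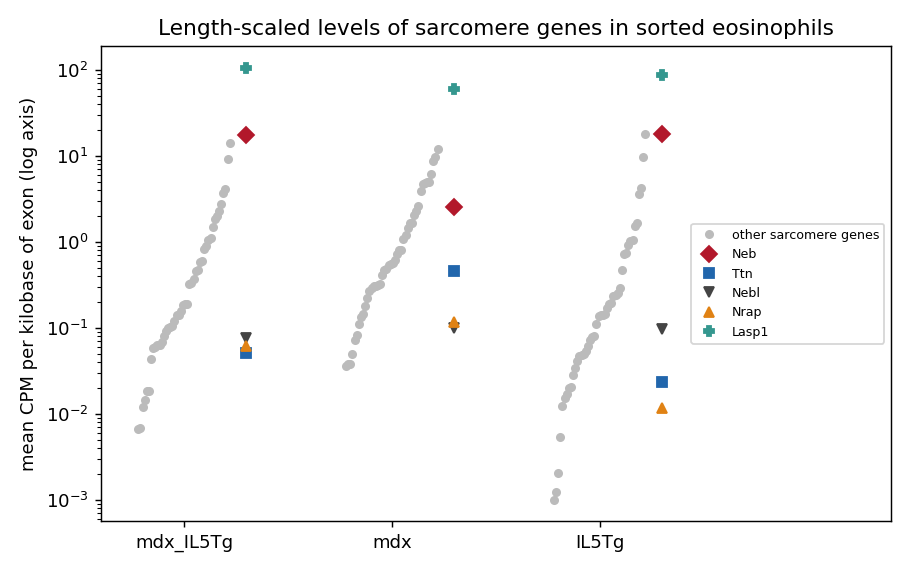
Mean CPM per kb of exon (log axis) of the 5 genes (coloured symbols) and of 44 other sarcomere genes (grey points, sorted) in each group, with 1 gene at 0 in IL5Tg drawn at the bottom. Lasp1 and Neb lie at or near the top in mdx_IL5Tg and IL5Tg libraries, and in mdx libraries Neb (2.58) falls inside the range of the grey points.

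Thin filament genes, the proteins that share nebulin's filament, had 13 of 17 members tested, and in the comparisons with mdx most had the sign of Ttn's difference, which is the opposite of Neb's. In mdx_IL5Tg against IL5Tg libraries, 3 passed edgeR's test as higher and 0 as lower, beside 4.35% and 2.87% of all tested genes. In mdx_IL5Tg against mdx, 0 passed as higher and 7 as lower, beside 10.1% and 11.5%. In mdx against IL5Tg, 10 passed as higher and 0 as lower, beside 11.8% and 8.96%. The median log2 difference of the 13 was 1.01, -1.28 and 2.48 in these comparisons, against -0.05, -0.13 and 0.01 over all tested genes. Members near 0 in IL5Tg libraries, such as Tnni1 (mean 0.0444 CPM), passed the filter through libraries where they were higher. Such members, here and in the lists below, could hardly be called lower against IL5Tg. With the stricter filter, 5 thin filament calls remained in mdx against IL5Tg. The list, like the others below, was written with earlier results of these data known, and changes of single genes are log2 fold changes.

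Acta1, the actin of skeletal thin filaments, had 5, 6.72 and 5.30 CPM in mdx_IL5Tg libraries, 19.2, 9.71 and 10.8 CPM in mdx libraries and 1.31, 1.78 and 1.60 CPM in IL5Tg libraries, with no overlap between groups. Its log2 fold change against IL5Tg was 1.85 (SE 0.30) in mdx_IL5Tg and 3.08 (SE 0.31) in mdx, with an edgeR adjusted p = 0.0097 and 0.00012. Against mdx, it fell by 1.23 (SE 0.28) on the log2 scale in mdx_IL5Tg, with an edgeR adjusted p = 0.012. For the fast troponin T gene Tnnt3 the log2 change was 1.79 in mdx_IL5Tg against IL5Tg, -1.50 in mdx_IL5Tg against mdx and 3.29 in mdx against IL5Tg (edgeR adjusted p = 0.045, 0.026 and 0.001). The cardiac actin Actc1, which developing skeletal muscle also expresses, rose by 2.62 in mdx_IL5Tg and by 3.98 in mdx against IL5Tg (edgeR adjusted p = 0.039 and 0.0022). In mdx_IL5Tg against mdx, tropomyosin Tpm1 fell by 0.85 and the pointed-end cap Tmod1 fell by 1.89 (edgeR adjusted p = 0.015 and 0.021). Klhl41, a regulator of nebulin's stability, rose by 2.54 in mdx against IL5Tg (edgeR adjusted p = 0.0027).
Acta1 in mdx_IL5Tg against IL5Tg and the 4 thin filament genes named for mdx against IL5Tg kept their calls in each alternative that tested them. The other thin filament calls named were lost in some. The count of 3 became 1 when any of IL5Tg S7 and S9 or mdx_IL5Tg S1 and S2 was left out, and 5 when mdx_IL5Tg S3 was. The count of 7 became 4 with IL5Tg S9 left out, 1 with mdx_IL5Tg S1 or S3 left out, 0 with mdx S4 left out and 3 with mdx S6 left out.

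Z-disc genes and titin's binding partners had 16 of 26 members tested. In mdx_IL5Tg against IL5Tg 1 rose and 0 fell, where 4.35% of all tested genes rose and 2.87% fell, so the count was near the background. In mdx_IL5Tg against mdx 1 rose and 4 fell, beside 10.1% and 11.5% of all tested genes, and in mdx against IL5Tg 7 rose and 1 fell, beside 11.8% and 8.96%. The medians were 0.34, -1.22 and 1.64, and the first was -0.27 with the stricter filter. Filamin C (Flnc), which crosslinks actin at the Z-disc, had 13.7, 18.8 and 9.82 CPM in mdx_IL5Tg libraries, 52.0, 45.2 and 44.3 CPM in mdx libraries and 9.98, 8.57 and 7.53 CPM in IL5Tg libraries. The mdx libraries were high and the other groups overlapped. Flnc fell by 1.74 (SE 0.22) on the log2 scale in mdx_IL5Tg against mdx (edgeR adjusted p = 0.00062) and rose by 2.44 (SE 0.23) in mdx against IL5Tg (edgeR adjusted p = 8.8e-05). The log2 change of the fast-fibre actinin Actn3 was 1.68 for mdx_IL5Tg against IL5Tg, -1.61 for mdx_IL5Tg against mdx and 3.29 for mdx against IL5Tg (edgeR adjusted p = 0.023, 0.0055 and 0.00017). Desmin (Des), the intermediate filament of muscle, fell by 1.64 in mdx_IL5Tg against mdx and rose by 2.57 in mdx against IL5Tg (edgeR adjusted p = 0.0069 and 0.00071). Ankrd1, a titin-bound ankyrin repeat protein, fell by 2.76 in mdx_IL5Tg against mdx (edgeR adjusted p = 0.0072).
Pdlim5 was the member that fell in mdx against IL5Tg, where it fell by 0.91 (SE 0.17) with an edgeR adjusted p = 0.004. It had 124, 125 and 130 CPM in mdx_IL5Tg libraries, 100, 65.4 and 93.6 CPM in mdx libraries and 143, 182 and 160 CPM in IL5Tg libraries, so its order was like Neb's with mdx lowest. Pdlim5 was also the member that rose in mdx_IL5Tg against mdx, by 0.55 (edgeR adjusted p = 0.037), and this value was named after the calls were seen. The calls of Actn3 in mdx_IL5Tg against IL5Tg and of Pdlim5 in mdx_IL5Tg against mdx were lost in some alternatives. That of Pdlim5 was lost with library totals as the scaling and without mdx_IL5Tg S1. The other Z-disc calls named held in each alternative that tested the gene. The count of 1 in mdx_IL5Tg against IL5Tg became 0 when any of IL5Tg S8 and S9 or mdx_IL5Tg S1 and S2 was left out, and 3 when mdx_IL5Tg S3 was. The 5 calls in mdx_IL5Tg against mdx were 8 without mdx S5, and the 8 in mdx against IL5Tg were 5 without IL5Tg S8 and also 5 without mdx S4.

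Thick filament and M-band genes, which include titin's partners at its C-terminal end, had 15 of 19 members tested. In mdx_IL5Tg against IL5Tg 3 rose and 0 fell, in mdx_IL5Tg against mdx 0 rose and 9 fell, and in mdx against IL5Tg 13 rose and 0 fell, with medians of 1.40, -1.62 and 2.78. Over all tested genes, 4.35% rose and 2.87% fell in the first comparison, 10.1% and 11.5% in the next, and 11.8% and 8.96% in the last. Myh8 was at 0 in all IL5Tg libraries, and with it at its bound the medians against IL5Tg were 1.33 and 2.73. Myom2, Myh3, Myh8 and Mybpc2 (mean 0.0557 CPM), all at or near 0 in IL5Tg libraries, passed the filter through libraries where they were higher. The fast myosin light chain Mylpf had 2.25, 2.52 and 2.61 CPM in mdx_IL5Tg libraries, 7.31, 3.75 and 4.08 CPM in mdx libraries and 0.832, 0.811 and 0.634 CPM in IL5Tg libraries, with no overlap. It rose by 1.69 in mdx_IL5Tg and by 2.73 in mdx against IL5Tg (edgeR adjusted p = 0.021 and 0.00043). Another light chain gene, Myl1, rose by 2.21 and 3.48 in those comparisons (edgeR adjusted p = 0.02 and 0.00047), and the myosin-binding protein gene Mybpc2 rose by 3.12 in mdx_IL5Tg against IL5Tg (edgeR adjusted p = 0.049).
In mdx_IL5Tg against mdx, the myosin-folding factor gene Smyd1 fell by 3.88, the fast myosin Myh1 fell by 2.38, and the M-band genes Myom1 and Obsl1 fell by 1.62 and fell by 1.51 (edgeR adjusted p = 0.0029, 0.0076, 0.017 and 0.033). Smyd1 averaged 0.0303 CPM in mdx_IL5Tg against 0.502 CPM in mdx libraries, so its fold is near the floor. It passed the filter through mdx libraries and could hardly be called higher in mdx_IL5Tg against mdx. Myh1 rose by 3.25 in mdx against IL5Tg (edgeR adjusted p = 0.0021). The embryonic myosin Myh3, made in regenerating fibres, had 557 counts over the mdx libraries against 1 count over the IL5Tg libraries, a ratio of 416 between their CPM with a 95% counting interval of 74.3 to 16447 (edgeR adjusted p = 0.0024).
The calls of Mylpf, Myl1 and Mybpc2 in mdx_IL5Tg against IL5Tg and of Myom1 and Obsl1 in mdx_IL5Tg against mdx were lost in some alternatives. For Mybpc2 these were 11 of the 15 alternatives that tested it, and for Myl1 2 of 17. The 3 calls in mdx_IL5Tg against IL5Tg became 0 with IL5Tg S7 left out, 1 with IL5Tg S9 or mdx_IL5Tg S1 left out, and 5 with mdx_IL5Tg S3 or mdx S5 left out. The 9 in mdx_IL5Tg against mdx became 3, 5 and 4 with IL5Tg S7, S8 and S9 left out in turn, 2, 4 and 3 with mdx_IL5Tg S1, S2 and S3 left out, 2 with mdx S4 left out and 4 with mdx S6 left out.

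Markers of muscle cells, some of them also in the sarcomere lists, differed between groups in the sorted samples. All 14 muscle fibre markers were detected in each group, with a summed level of 26.5 to 33.1 CPM in mdx_IL5Tg libraries, 50.2 to 88.3 CPM in mdx libraries and 12.6 to 18.4 CPM in IL5Tg libraries. Of 13 tested, 6 rose in mdx_IL5Tg against IL5Tg, 10 fell in mdx_IL5Tg against mdx and 13 rose in mdx against IL5Tg, beside 4.35%, 11.5% and 11.8% of all tested genes. Of these markers, 5 are also in the sarcomere lists. The 8 myoblast markers in the table summed to 7.26 to 18.6 CPM in mdx_IL5Tg libraries, 41.1 to 57.1 CPM in mdx libraries and 4.59 to 7.87 CPM in IL5Tg libraries. Myh3 and Des among them are also in the sarcomere lists. All 10 fibroblast markers were detected, at a sum of 784 to 3068 CPM in mdx_IL5Tg libraries, 4506 to 10969 CPM in mdx libraries and 976 to 2266 CPM in IL5Tg libraries. The 12 macrophage markers summed to 2508 to 2776 CPM, 1686 to 2170 CPM and 1608 to 1977 CPM in mdx_IL5Tg, mdx and IL5Tg libraries, and the 8 endothelial markers to 291 to 653 CPM, 674 to 833 CPM and 408 to 561 CPM. Most single macrophage markers ran opposite to their sum in mdx_IL5Tg against mdx. There 9 of 12 fell and 1 rose, beside 11.5% and 10.1% of all tested genes. In mdx against IL5Tg 9 rose and 0 fell, beside 11.8% and 8.96%. In mdx_IL5Tg against IL5Tg 4 rose and 0 fell, beside 4.35% and 2.87%.
Of the 8 endothelial markers, 1 fell in mdx_IL5Tg against mdx and 3 rose in mdx against IL5Tg, beside 11.5% and 11.8% of all tested genes. No defining marker of these lists that was in the table was at 0 in any group. The muscle fibre, myoblast, fibroblast and endothelial sums and most single macrophage markers were higher in mdx than in the other groups, as Ttn and most sarcomere genes were, and their part in those results was not tested. Neb ran the other way, at its lowest in the libraries with the highest muscle fibre sums. The eosinophil marker sum was also lowest in mdx libraries, at 2179 to 2977 CPM. Of 12 eosinophil markers tested, 7 fell and 0 rose in mdx against IL5Tg, beside 8.96% and 11.8% of all tested genes. In mdx_IL5Tg against mdx 3 rose and 0 fell, beside 10.1% and 11.5%. IL5Tg S7, with the highest eosinophil sum, had the lowest Neb of its group. The part of eosinophil content in Neb's level was not tested.

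**Figure D4:**
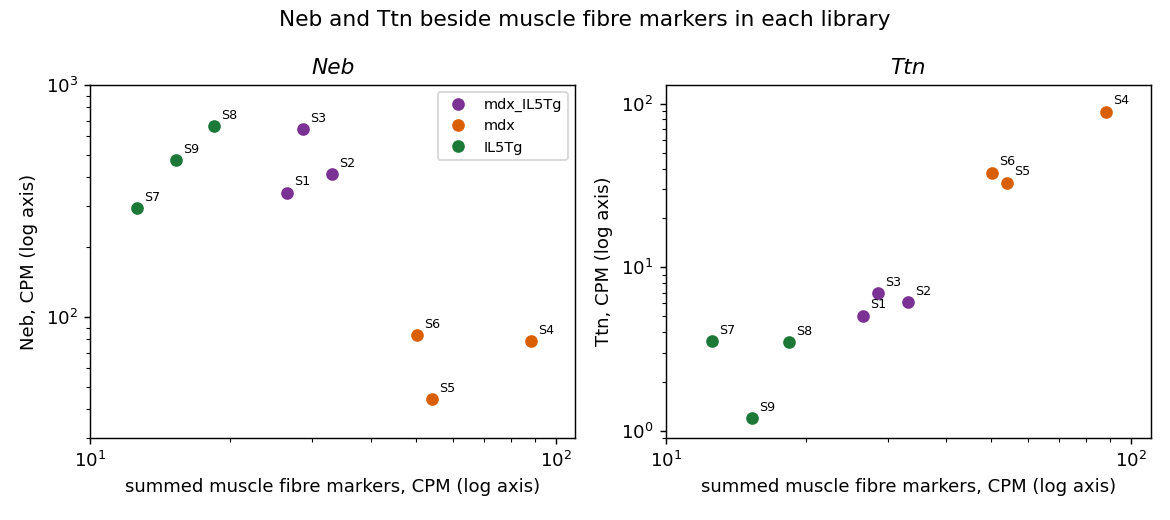
Neb (left) and Ttn (right) in CPM against the summed CPM of 14 muscle fibre markers, both on log axes, with a point for each of the 9 libraries. The mdx libraries have the highest marker sums (50.2 to 88.3 CPM) with the highest Ttn and the lowest Neb.

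Lasp1's partners and other focal adhesion genes, which link actin to sites of attachment, had all 20 members tested. In mdx_IL5Tg against IL5Tg 4 rose and 0 fell, beside 4.35% and 2.87% of all tested genes, and in mdx_IL5Tg against mdx 6 rose and 4 fell, beside 10.1% and 11.5%. In mdx against IL5Tg 3 rose and 2 fell, which was near the 11.8% and 8.96% of all tested genes. The medians were 0.24, 0.18 and 0.02, and with library totals as the scaling that for mdx_IL5Tg against mdx was -0.14; that for mdx against IL5Tg was 0 or lower in 8 alternatives. Enah, an Ena/VASP protein that extends actin filaments, had 332, 285 and 403 CPM in mdx_IL5Tg libraries, 39.3, 30.3 and 34.4 CPM in mdx libraries and 253, 287 and 328 CPM in IL5Tg libraries. The mdx libraries were far below the rest, the same order as Neb's. On the log2 scale, Enah rose by 3.29 (SE 0.18) in mdx_IL5Tg against mdx, with an edgeR adjusted p = 2.1e-06. In mdx against IL5Tg it fell by 3.06 (SE 0.18), with an edgeR adjusted p = 4.2e-06. Its relative Evl moved the other way, with log2 changes of -0.72 and 1.31 in those comparisons (edgeR adjusted p = 0.016 and 0.00076).
Tes, a LIM protein of focal adhesions, averaged 1004 ± 48.1 CPM in mdx_IL5Tg, 551 ± 62.5 CPM in mdx and 581 ± 21.9 CPM in IL5Tg libraries (SD, n = 3 each). It rose by 0.79 in mdx_IL5Tg against IL5Tg and by 0.86 against mdx (edgeR adjusted p = 0.0099 and 0.0015). The profilin Pfn1 rose by 0.68 and 0.76 in the same comparisons (edgeR adjusted p = 0.032 and 0.0074). Vasp, which binds Lasp1, rose by 0.81 in mdx_IL5Tg and by 0.56 in mdx against IL5Tg (edgeR adjusted p = 0.013 and 0.017). Cytoplasmic actin Actb rose by 0.58 in mdx_IL5Tg against IL5Tg, and the adhesion adaptor Trip6 rose by 0.98 in mdx against IL5Tg (edgeR adjusted p = 0.038 and 0.035). Named after the calls were seen, the remaining falls were those of Trip6, Parva and Palld in mdx_IL5Tg against mdx, at -0.97, -0.98 and -1.24, and of filamin A (Flna) in mdx against IL5Tg, at -0.44 (edgeR adjusted p = 0.035, 0.039, 0.028 and 0.049).
The calls of all 4 genes named for mdx_IL5Tg against IL5Tg were lost in some alternatives. So were those of Evl, Trip6, Parva and Palld in mdx_IL5Tg against mdx, and of Vasp, Trip6 and Flna in mdx against IL5Tg. Trip6's calls in both of these comparisons and Flna's call were each lost in 10 of 17. The calls of Enah held in all. The 4 calls in mdx_IL5Tg against IL5Tg became 2 when any IL5Tg library or mdx_IL5Tg S2 was left out, 0 without mdx_IL5Tg S1, and 8 without mdx S5. The 10 in mdx_IL5Tg against mdx became 3 and 4 with mdx_IL5Tg S1 and S3 left out in turn, 3 with mdx S4 left out and 5 with mdx S6 left out. The 5 in mdx against IL5Tg were 3 without IL5Tg S7, mdx_IL5Tg S1 or mdx_IL5Tg S2, and 2 without IL5Tg S8, IL5Tg S9 or mdx S4.

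**Figure D5:**
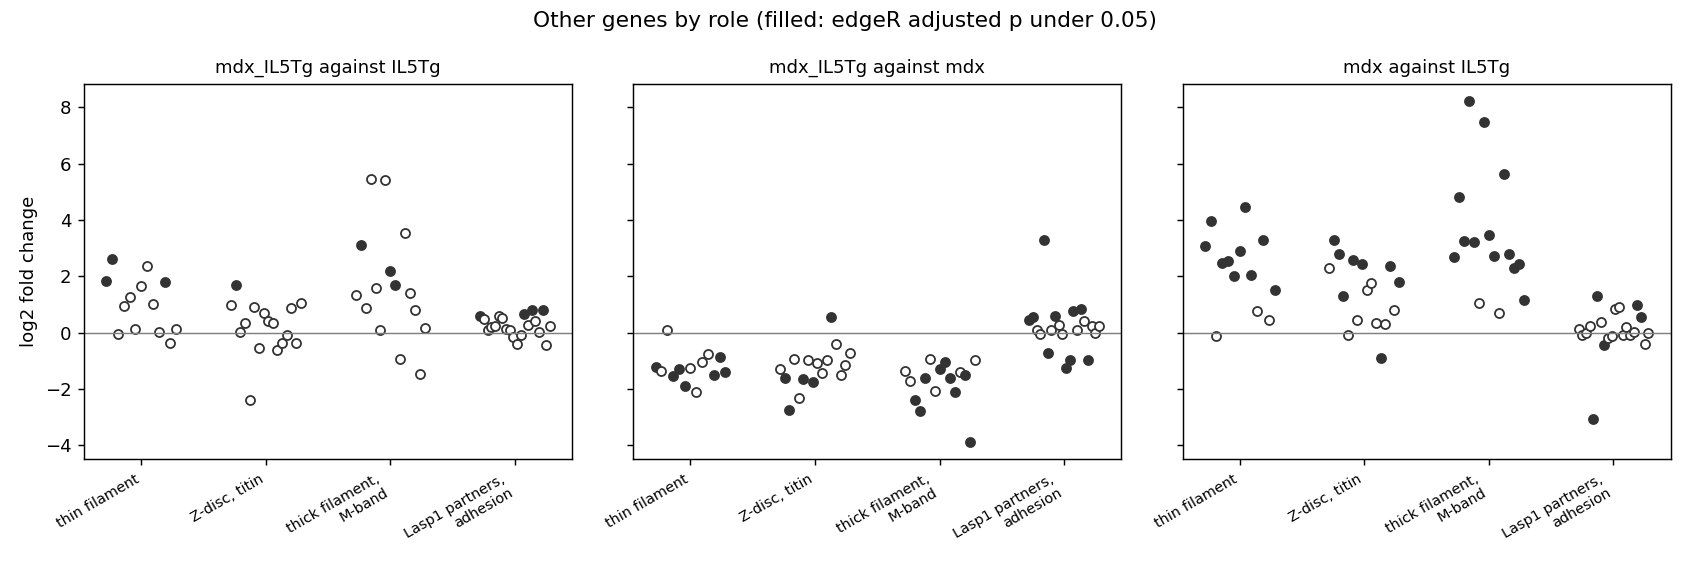
Log2 fold change (vertical axis) of each tested gene of the 4 lists in the 3 comparisons, 1 panel each, filled where edgeR's adjusted p was under 0.05. Sarcomere genes lie mostly below 0 for mdx_IL5Tg against mdx and above 0 for mdx against IL5Tg, and Enah is the low filled point of the Lasp1 partner list in mdx against IL5Tg (-3.06).

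Genes next to the 5 on the chromosome are given as a description. The sources do not give the strand setting of the counts. These levels therefore cannot show whether reads from neighbouring or antisense transcripts were counted in the 5. The 3 genes that overlap Neb averaged at most 0.0198 CPM in any group, and the antisense gene over Ttn was at 0. Of Neb's flanking genes, Rif1 averaged 12, 14.6 and 23.4 CPM in mdx_IL5Tg, mdx and IL5Tg libraries and passed no test. Arl5a, on Neb's strand, averaged 80.1, 42.6 and 90.0 CPM in those groups, and its change passed the test in mdx_IL5Tg against mdx at 0.91 and in mdx against IL5Tg at -1.08 (edgeR adjusted p = 0.001 and 0.00033). Ccdc141, beside Ttn on the same strand, averaged 0.858, 2.53 and 0.937 CPM and changed by -1.56 and 1.43 in these comparisons (edgeR adjusted p = 0.0093 and 0.014). Plekha3 on Ttn's other side passed no test. Arl5a and Ccdc141 had the sign of the gene they adjoin in both comparisons; Arl5a's calls held in each alternative tried, and both of Ccdc141's were lost in some, without mdx S4 among them.
Habp2, which overlaps Nrap on the opposite strand, averaged at most 0.00698 CPM. Tcf7l2, the gene beyond Nrap at lower coordinates, changed by 1.01 in mdx_IL5Tg and 1.43 in mdx against IL5Tg (edgeR adjusted p = 0.03 and 0.0017), and the first of these calls was lost in some alternatives. No gene overlaps Lasp1. Of its flanking genes, Rpl23 passed no test and the gene on the other side, which has a clone name, changed by -1.41 in mdx against IL5Tg (edgeR adjusted p = 0.042), a call also lost in some.

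Genes most like each of the 5 were taken by Pearson's r of log2 CPM over the 9 libraries among 7523 genes at or above the median level. The libraries share depth and group, so r is a description. For Neb these were Slc36a4, an amino acid transporter gene (r = 0.995), the tyrosine kinase gene Fer (r = 0.990) and Tnfrsf26 (r = 0.985). Slc36a4 averaged 213 ± 24.7 CPM in mdx_IL5Tg, 86.3 ± 16.0 CPM in mdx and 211 ± 41.9 CPM in IL5Tg libraries (SD, n = 3 each). For Lasp1 they were the kinase gene Rps6ka2 (r = 0.992), Zfp954 (r = 0.983) and folliculin, Flcn (r = 0.982). For Ttn they were the sorting nexin gene Snx10, the imprinted gene Peg3 and Spata13 (r = 0.970, 0.970 and 0.969), of which Spata13 averaged 89.4 ± 9.68 CPM in mdx_IL5Tg, 249 ± 45.4 CPM in mdx and 40.5 ± 9.37 CPM in IL5Tg libraries. None of these 9 genes is in a sarcomere list, but list members below the median level could not be picked. Nothing is therefore read from that absence. For Nebl, whose counts are low, Smc1a, Gbp7 and Cdc23 came first (r = 0.914, 0.896 and 0.885), and Nrap had too few counts for such a comparison.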

How the data were processed

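For 9 libraries of total RNA from sorted eosinophils, the authors deposited unnormalised expected counts by gene. Per the submitters' processing notes, the tools were RSEM 1.3.0, STAR 2.5.3, cutadapt 2.10 and limma, with the build mm10; for settings, annotation and strand, the sources used here give nothing. RSEM shares ambiguous reads among genes by estimation, and 6.03% of the authors' expected counts were not whole and were rounded; among the 5 genes, fractional counts occurred for Lasp1 alone. Column names carry a group and an S number, so columns were tied to groups and not to numbered replicates.

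Genes kept by filterByExpr (minimum count 10; 15886 of 54146) were fitted with edgeR 4.0.16 in R 4.3.3: TMM factors, quasi-likelihood, 9 libraries in 1 fit, Benjamini-Hochberg adjustment over all tested genes, threshold 0.05. CPM is TMM-scaled, and length is the union of exons in GENCODE M21. Correlations between libraries of a group were 0.957 to 0.987, and no pair agreed within sampling noise. The fit was tested on simulated data, for mdx_IL5Tg against IL5Tg only. Changes were simulated only in genes above the median level, so the test does not cover changes in sparser genes.

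The 5 genes and the lists were chosen with earlier results of these data known. Genes named in the text were the 5, up to 4 genes per list and comparison with the smallest p past the threshold, and the 3 genes with the highest r per gene with at least 10 counts in every library, without predicted, clone, RIKEN, pseudogene, mitochondrial and small RNA names. Flanking genes are the next protein-coding genes. Alternatives were RLE factors, library totals, DESeq2 1.42.0, limma voom (3.58.1), other filters, the 2 groups compared alone, each library left out and, chosen after seeing the data, IL5Tg S7 and mdx S5 left out together.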

Additional observations from a re-analysis of the deposited data

How the results depend on the processing

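No paired analysis was possible because the columns carry S numbers that no label ties to the replicate numbers. Of the 43 calls named by the rule, 24 held in every alternative that tested the gene and 19 were lost in at least 1. Of 12 calls named beside the rule, 3 held and 9 were lost. Among the differences of the 5 genes, 18 alternative values changed sign or came to 0, all of Neb or Nebl. The median of the Z-disc list in mdx_IL5Tg against IL5Tg turned to -0.27 with the stricter filter, and that of the Lasp1 partner list in mdx_IL5Tg against mdx to -0.14 with library totals; for the Lasp1 partner list in mdx against IL5Tg the median, 0.02, came to between -0.03 and 0 in 8 alternatives.

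With library totals in place of TMM factors, the median log2 difference of all genes shifted to -0.27, -0.46 and 0.12 in mdx_IL5Tg against IL5Tg, mdx_IL5Tg against mdx and mdx against IL5Tg, against -0.05, -0.13 and 0.01. The share of calls that were higher was then 24.1%, 15.7% and 70.7%, against 60.2%, 46.7% and 56.8%, and DESeq2 gave 49.0% in the first. Lasp1 was then at 0.50 in mdx_IL5Tg against mdx.

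In mdx_IL5Tg against IL5Tg, thin filament calls were 1 with library totals and 1 with voom. Z-disc calls were 3 with DESeq2, 0 with voom, 3 with no filter and 2 with mdx S5 and IL5Tg S7 both left out. Thick filament calls were 7 with DESeq2, 1 with voom and 5 with no filter. Calls over all genes were 2464 with DESeq2, 1816 with only these groups fitted and 1739 without that pair, against 1147. In mdx_IL5Tg against mdx, Z-disc calls were 10 with library totals, 9 with voom and 8 without that pair, thin filament calls 4 with the stricter filter, and thick filament calls 4 with only these groups. In mdx against IL5Tg, the stricter filter, which tests fewer genes, left 5 thin filament, 4 Z-disc and 7 thick filament calls, and it dropped Nrap. Without that pair of libraries Nrap was at 4.09 in mdx_IL5Tg against IL5Tg, and in mdx against IL5Tg Nebl was at 0.50, Lasp1 at -0.76 and Nrap at 5.43. The cause of these shifts was not tested.

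Ranges over leaving out each library were as follows. In mdx_IL5Tg against IL5Tg, calls were 110 to 2641 over all genes, 1 to 5 thin filament, 0 to 3 Z-disc, 0 to 5 thick filament and 0 to 8 Lasp1 partner genes, and log2 differences were -0.28 to 0.34 for Neb, -0.51 to 0.05 for Nebl, 0.17 to 0.50 for Lasp1, 1.84 to 4.12 for Nrap and 0.82 to 1.39 for Ttn. In mdx_IL5Tg against mdx, calls were 1521 to 4057, 0 to 6, 4 to 8, 2 to 8 and 3 to 10 in the same order, and log2 differences 2.53 to 3.04 for Neb, -0.49 to -0.06 for Nebl, 0.86 to 0.92 for Lasp1, -1.34 to -0.29 for Nrap and -3.40 to -2.48 for Ttn. In mdx against IL5Tg, calls were 1961 to 3837, 8 to 11, 5 to 9, 9 to 13 and 2 to 5, and log2 differences -3.11 to -2.53 for Neb, -0.17 to 0.35 for Nebl, -0.74 to -0.41 for Lasp1, 2.65 to 4.94 for Nrap and 3.65 to 4.53 for Ttn. In mdx_IL5Tg against mdx, the fit with all libraries lay outside these ranges for Lasp1 (0.82), thin filament calls (7) and thick filament calls (9). Why it did was not tested. Depth limits Nrap and Nebl, which rest on at most 51 and 82 counts per library.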
